A study of Saccharomyces cerevisiae with 18 samples.

Results

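The 10 histone genes of budding yeast were followed here across both strains and all times of a PPZ1 overexpression experiment: HTA1, HTA2, HTB1, HTB2, HHT1, HHT2, HHF1 and HHF2 for the core histones, HTZ1 for the variant H2A.Z and HHO1 for the linker histone H1. They were taken by gene name from the 6692 probes of the count tables, and all 10 passed the filter on low counts together with 5475 other genes. Wild type BY4741 and its derivative ZCZ01 (GAL1:PPZ1), in which the GAL1-10 promoter drives PPZ1, were grown in raffinose, and both received galactose, which turns that promoter on. RNA was taken 0.5, 2 and 4 h later in 3 experiments, which gives 3 libraries for each strain and time and 18 in all. Ppz1 is a Ser/Thr protein phosphatase of fungi that blocks growth when made in excess. The labels name no other change between the strains.

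Core histones form the protein octamer around which DNA is wrapped. In Saccharomyces cerevisiae each is encoded by a pair of gene copies, and the genes lie in divergent pairs, an H2A gene with an H2B gene and an H3 gene with an H4 gene, around a shared promoter. Their transcripts are made mainly in S phase, when new DNA has to be packed. Transcription depends on the factors SBF, MBF and Spt10 with Spt21, and outside S phase the HIR complex holds down every pair other than HTA2-HTB2. H2A.Z is placed at promoters by the SWR1 complex outside as well as within S phase, and Hho1 binds the linker DNA between nucleosomes.

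The libraries held 955972 to 1920193 counts (median 1647535). Values are given as CPM, the count in 1000000 counts of a library after TMM scaling. They were not divided by length, because the method reads only the 3′ end of a transcript. PPZ1 itself stood at 4.68 to 10.9 CPM in the 9 wild type libraries and at 21.4 to 516 CPM in the 9 ZCZ01 libraries. Its course differed between the experiments: in ZCZ01 it was 516, 90.9 and 21.4 CPM at 0.5, 2 and 4 h in experiment 1, 134, 401 and 98.7 CPM in experiment 2, and 133.5, 467 and 91.5 CPM in experiment 3. Experiments 2 and 3 were closely alike. The chi-square of their counts per degree of freedom, which is about 1 where libraries differ by counting error alone, was 1.11 to 2.57, against 20.8 to 45.3 for pairs with experiment 1, and experiment 3 was 1.32 to 1.34 times as deep as experiment 2 at every strain and time. The labels do not say that the experiments were separate cultures, so p-values measure the spread between these libraries. Experiments 2 and 3 may be repeat libraries of the same cultures, in which case n is 2 and not 3 throughout. Calls of the histone genes that differ with both summed as 1 replicate are given. So are numbers called in other lists of genes at 2 or 4 h, where they differ. Times were read from the library names, which match the columns of the tables; in 12 libraries the title of the sample has a different time.

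Together the 10 genes took 1.05% to 1.40% of all counts in wild type at 0.5 h, 0.991% to 1.48% at 2 h and 0.952% to 1.80% at 4 h. In ZCZ01 they took 1.07% to 1.42% at 0.5 h, 0.346% to 0.537% at 2 h and 0.278% to 0.539% at 4 h. The strains overlapped at 0.5 h and were apart at the later times. In RNA from whole cultures, fewer cells in the phase that makes histone transcripts and less transcript per cell cannot be told apart.

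**Figure D1:**
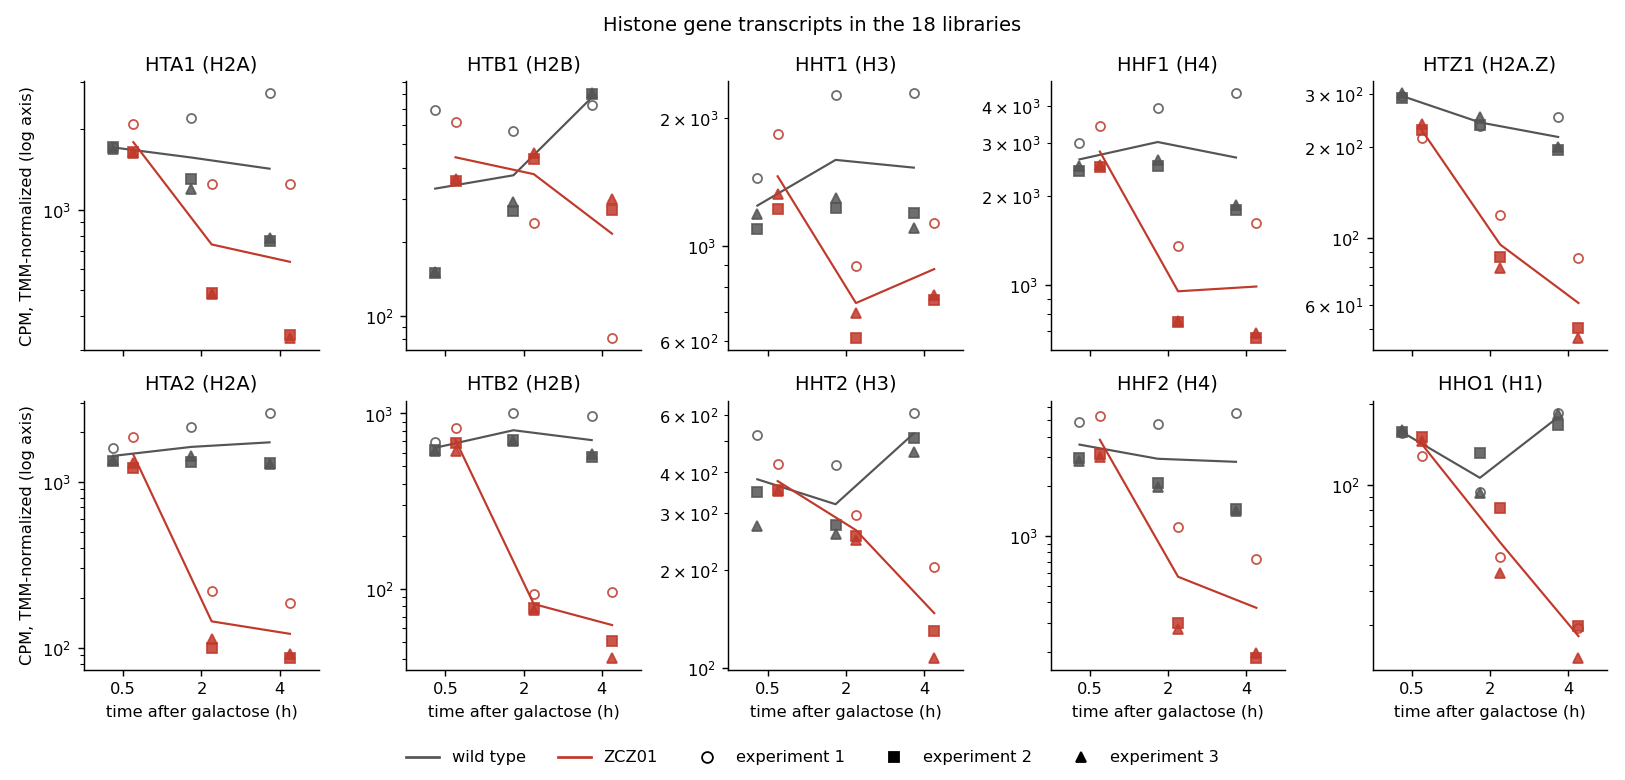
TMM-normalized CPM (log axis, one scale per panel) of each histone gene against time after galactose, with wild type in grey and ZCZ01 in red, a symbol for each experiment and lines through the means of 3 libraries. HTA2 and HTB2 fall furthest in ZCZ01 between 0.5 and 2 h, while the mean of HHT2 is near wild type at 2 h and below it at 4 h. HTB1 at 2 h is below wild type in experiment 1 and above it in experiments 2 and 3, and at 4 h it is below in each.

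At 0.5 h none of the 10 genes passed edgeR's quasi-likelihood test at an adjusted p under 0.05, where 2.37% of all 5485 genes were called lower in ZCZ01 and 4.69% higher. DESeq2 also called 0 members, and 1 member, HTZ1, had an unadjusted p under 0.05 in edgeR. At 2 h 8 of the 10 were called lower, against 23.4% of all genes, and 7 of them were lower by at least 2-fold, against 9.57%. At 4 h all 10 were called lower, against 21.6%, and 9 of them by at least 2-fold, against 10.4%. The median log2 ratio of ZCZ01 to wild type over the 10 genes was 0.07 at 0.5 h, -1.27 at 2 h and -1.95 at 4 h, beside 0.01, -0.05 and 0.00 over all genes tested. By the bare ranges, 2 members (HTZ1 and HHO1) lay lower in ZCZ01 without overlap of the libraries at 0.5 h, against 9.95% of all genes, 7 at 2 h against 24.1%, and 8 at 4 h against 20.1%.

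HTA2 and HTB2, the divergent H2A and H2B genes on chromosome II, had the largest differences. HTA2 stood at 2131, 1315 and 1421 CPM in wild type at 2 h in experiments 1, 2 and 3, and at 218, 99.96 and 113 CPM in ZCZ01. HTB2 stood at 1009, 705 and 696 CPM in wild type and at 93.7, 78.0 and 76.2 CPM in ZCZ01. The highest ZCZ01 library was far below the lowest wild type library for each gene. HTA2 was 11.7-fold lower in ZCZ01 at 2 h (log2 ratio -3.54 ± 0.14, SE, n = 3 pairs, adjusted p = 9.2e-10 by edgeR) and HTB2 was 9.63-fold lower (-3.27 ± 0.15, adjusted p = 2.4e-09 by edgeR). At 4 h HTA2 was at 2605, 1304 and 1276 CPM in wild type against 184, 87.0 and 91.5 CPM in ZCZ01, a 14.3-fold difference (log2 ratio -3.84 ± 0.14, adjusted p = 4.4e-10 by edgeR). HTB2 was at 967, 563 and 587 CPM against 96.2, 51.1 and 41.0 CPM, an 11.6-fold difference (-3.53 ± 0.15, adjusted p = 1.6e-09 by edgeR). At 0.5 h, by contrast, the strains were side by side, with HTA2 at 1595, 1340 and 1359 CPM in wild type and 1860, 1212 and 1289 CPM in ZCZ01.

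Of the other H2A-H2B pair, HTA1 and HTB1 on chromosome IV, HTA1 was called lower at 2 and 4 h and HTB1 at 4 h alone. HTA1 was at 2213, 1300 and 1193 CPM in wild type at 2 h and at 1252, 491 and 484 CPM in ZCZ01. Every experiment had less HTA1 in ZCZ01, but the ZCZ01 library of experiment 1 lay among the wild type libraries of the others. The log2 ratio was -1.17 ± 0.13 at 2 h (adjusted p = 1.3e-05 by edgeR) and -1.18 ± 0.13 at 4 h (adjusted p = 1.2e-05 by edgeR), where the libraries read 2727, 765 and 782 CPM in wild type and 1245, 341 and 332 CPM in ZCZ01. Without the block for pairs of libraries HTA1 was no longer called, with a log2 ratio of -1.08 at 2 h (adjusted p = 0.161 by edgeR) and of -1.16 at 4 h (adjusted p = 0.137 by edgeR).

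HTB1, the partner of HTA1, was the member on which the experiments differed most. In wild type it was at 690.3, 149 and 150.5 CPM at 0.5 h, at 565, 266 and 290.5 CPM at 2 h and at 722, 799.7 and 808 CPM at 4 h. Wild type thus started high in experiment 1 and low in the others, and all 3 ended at a like level. In ZCZ01 it was at 614, 354 and 360.2 CPM at 0.5 h, at 238, 436 and 459 CPM at 2 h and at 81.0, 269 and 298 CPM at 4 h. The ratio at 2 h was therefore below 1 in experiment 1 and above 1 in experiments 2 and 3, and the fit gave a log2 ratio of 0.06 ± 0.40 (adjusted p = 0.92 by edgeR). At 0.5 h it was 0.76 ± 0.40 (adjusted p = 0.32 by edgeR). At 4 h every ZCZ01 library was below every wild type library, with a log2 ratio of -2.02 ± 0.41 (adjusted p = 0.0014 by edgeR) and 4.05-fold less HTB1. Without experiment 1, HTB1 was called higher in ZCZ01 at 0.5 h (log2 ratio 1.26) and at 2 h (0.72), and lower at 4 h (-1.53). Those calls rest on the closely alike experiments 2 and 3 alone, which may be repeat libraries of the same cultures. The course of PPZ1 also differed between experiment 1 and the others, as given above, and its part in this was not tested.

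**Figure D2:**
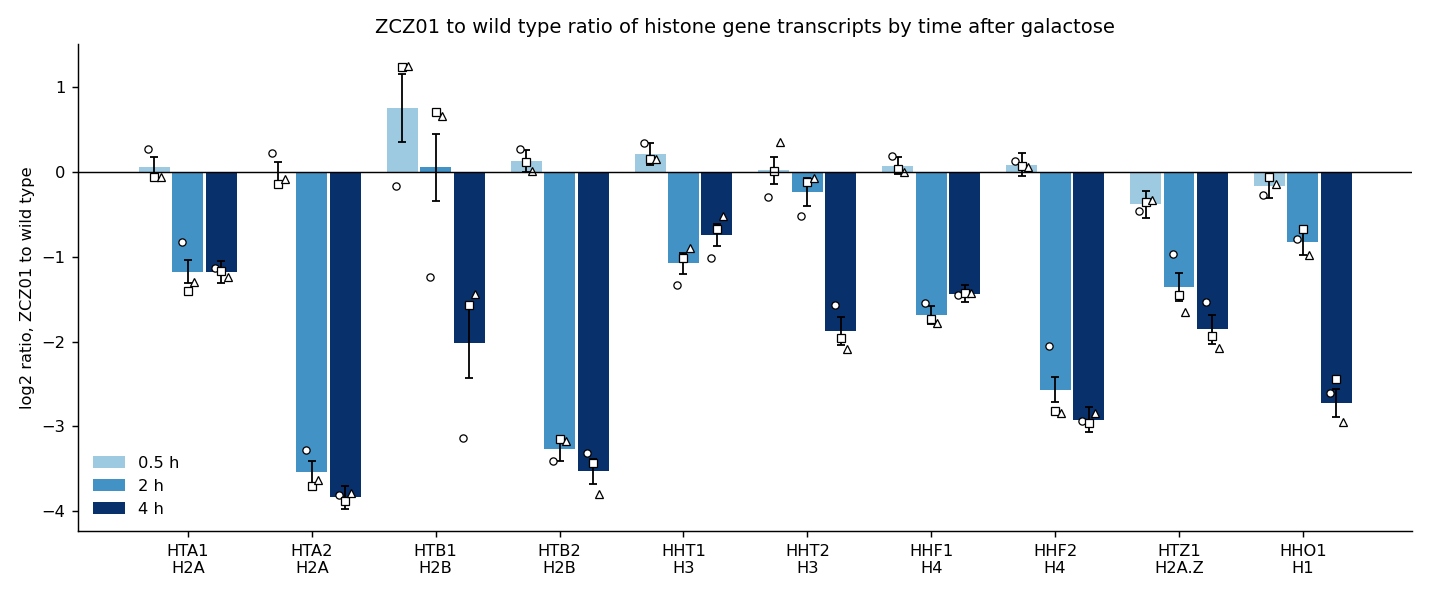
Log2 ratio of ZCZ01 to wild type for each histone gene at 0.5, 2 and 4 h, with bars for the fitted value, lines for its SE and symbols for experiments 1 (circle), 2 (square) and 3 (triangle). The bars for HTA2 reach -3.54 and -3.84 at 2 and 4 h, and the 3 symbols of HTB1 are widest apart.

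Of the H4 genes HHF2 had the larger difference. HHF2 was at 4731, 2102 and 1973 CPM in wild type at 2 h and at 1135, 298 and 274 CPM in ZCZ01, and at 4 h it was at 5562, 1454 and 1423 CPM against 726, 185 and 197 CPM. Experiment 1 was the highest in each strain, and the strains did not overlap at either time. The log2 ratio was -2.57 ± 0.15 at 2 h (5.94-fold lower, adjusted p = 2.1e-08 by edgeR) and -2.92 ± 0.15 at 4 h (7.57-fold lower, adjusted p = 7.2e-09 by edgeR). HHF1 was at 3939, 2509 and 2625 CPM in wild type at 2 h and at 1350, 753 and 762 CPM in ZCZ01, again without overlap. Its log2 ratio was -1.69 ± 0.10 at 2 h (adjusted p = 4.5e-08 by edgeR) and -1.43 ± 0.10 at 4 h (adjusted p = 1.6e-07 by edgeR). The probe of HHF2 overlaps that of KTR5, a mannosyltransferase gene on the other strand, in the stretches downstream of both, and no source used here gives the strand setting of the counting. KTR5 was at 6.35 to 36.2 CPM over the 18 libraries, far below the 185 to 5562 CPM of HHF2.

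The H3 genes differed in time. HHT1 was at 2254, 1227 and 1294 CPM in wild type at 2 h and at 898, 608 and 698 CPM in ZCZ01, so that no libraries overlapped, and the log2 ratio was -1.08 ± 0.13 (adjusted p = 2.2e-05 by edgeR). At 4 h HHT1 had the smallest difference of all 10 genes, 1.67-fold (-0.74 ± 0.13, adjusted p = 4.9e-04 by edgeR), with wild type at 2281, 1196 and 1102 CPM and ZCZ01 at 1132, 748 and 768 CPM, which overlapped. Without the block for pairs the call of HHT1 at 4 h was lost (-0.79, adjusted p = 0.0662 by edgeR). HHT2, the lower copy in every library, was at 423, 276 and 259 CPM in wild type at 2 h and at 295, 254 and 248 CPM in ZCZ01. These ranges overlapped, and the log2 ratio of -0.24 ± 0.16 did not pass (adjusted p = 0.26 by edgeR). At 4 h HHT2 was at 610.4, 510.4 and 462 CPM in wild type against 205, 130.5 and 108 CPM in ZCZ01, with no overlap and a 3.67-fold difference (-1.88 ± 0.17, adjusted p = 1.4e-06 by edgeR).

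HTZ1, for H2A.Z, and HHO1, for H1, lie apart from the divergent pairs, on chromosomes XV and XVI, and both were lower in ZCZ01. HTZ1 was at 234, 237 and 252 CPM in wild type at 2 h and at 119.7, 86.3 and 79.6 CPM in ZCZ01 (log2 ratio -1.36 ± 0.17, adjusted p = 2.6e-05 by edgeR). At 4 h it was at 251, 196 and 201 CPM against 86.0, 50.4 and 46.8 CPM (-1.85 ± 0.17, adjusted p = 1.9e-06 by edgeR). HTZ1 was also the member with the lowest ratio at 0.5 h, when wild type read 294, 290.2 and 301 CPM and ZCZ01 214, 228 and 239 CPM, but this difference of -0.38 ± 0.16 missed the threshold (adjusted p = 0.19 by edgeR). Without experiment 1 it passed, at -0.33.

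HHO1 had a small difference at 2 h and a large one at 4 h. It was at 93.5, 131 and 93.2 CPM in wild type at 2 h and at 53.8, 81.8 and 46.7 CPM in ZCZ01, a small gap but without overlap. The log2 ratio was -0.82 ± 0.16 (adjusted p = 9.1e-04 by edgeR), and without experiment 3 it was -0.70 and no longer called (adjusted p = 0.0593 by edgeR). At 4 h wild type read 185, 167 and 183 CPM and ZCZ01 29.2, 29.7 and 22.6 CPM. This difference was 6.60-fold (-2.72 ± 0.17, adjusted p = 3.5e-08 by edgeR), the fourth in size among the 10 genes after HTA2, HTB2 and HHF2.

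The difference between times was tested in its own right, as the change of the ZCZ01 to wild type ratio. From 0.5 to 2 h the ratio fell for 8 members, against 18.5% of all genes, and the members that did not pass were HTB1 (-0.70 ± 0.57, adjusted p = 0.38 by edgeR) and HHT2 (-0.26 ± 0.23, adjusted p = 0.42 by edgeR). The falls ran from -0.66 for HHO1 to -3.54 for HTA2 on the log2 scale. From 2 to 4 h it fell for 3 members, against 6.75% of all genes: HTB1 (-2.08 ± 0.57, adjusted p = 0.028 by edgeR), HHT2 (-1.64 ± 0.23, adjusted p = 8.9e-04 by edgeR) and HHO1 (-1.90 ± 0.23, adjusted p = 3.9e-04 by edgeR). HTA2, HTB2, HHF1, HHF2, HHT1, HTA1 and HTZ1 had changes of -0.50 to 0.34 over the same span and did not pass. With experiments 2 and 3 summed as 1 replicate the 8 and 10 calls at 2 and 4 h stayed at 8 and 10. Of the 8 falls from 0.5 to 2 h 6 were then left, without HTZ1 (adjusted p = 0.13 by edgeR) and HHO1 (adjusted p = 0.243 by edgeR). Of the 3 late falls 1 was left, that of HHO1. From 0.5 to 4 h the ratio fell for all 10, against 15.8% of all genes. Without the block for pairs, 5 members passed from 0.5 to 2 h and 6 from 0.5 to 4 h.

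Within wild type few members passed. From 0.5 to 2 h HHO1 was the only one called, at -0.59 ± 0.18 on the log2 scale (adjusted p = 0.025 by edgeR), where 9.48% of all genes were called lower. From 2 to 4 h HHT2 (0.75 ± 0.16, adjusted p = 0.0053 by edgeR) and HHO1 (0.78 ± 0.18, adjusted p = 0.0097 by edgeR) were called higher, against 5.18% of all genes. HTB1 had the largest value over that span, 1.12 ± 0.51, and did not pass (adjusted p = 0.18 by edgeR). Values of experiments 2 and 3 moved more than these calls show, with HTB1 more than 5-fold higher at 4 h than at 0.5 h and HTA1 and HHF2 lower in wild type. Without experiment 1, 1 member was called higher and 5 lower from 0.5 to 2 h, and 3 higher and 4 lower from 2 to 4 h. In that fit the closely alike experiments 2 and 3, which may be repeat libraries, alone set the spread. Within ZCZ01, 9 members were called lower at 2 h than at 0.5 h, against 19.2% of all genes, from HHT2 (-0.50 ± 0.16) to HTA2 (-3.39 ± 0.18), and HTB1 was not called (-0.14 ± 0.51, adjusted p = 0.85 by edgeR). From 2 to 4 h HHT2 (-0.89 ± 0.16, adjusted p = 0.0027 by edgeR) and HHO1 (-1.14 ± 0.20, adjusted p = 0.0026 by edgeR) were called lower, against 3.48% of all genes. HHO1 had already fallen in ZCZ01 from 0.5 to 2 h (-1.24 ± 0.18). The genes whose ratio fell from 2 to 4 h thus included HHT2 and HHO1, which were called in opposite directions in wild type and in ZCZ01 over that span. Those calls within a strain from 2 to 4 h were all lost without experiment 2, without experiment 3, and with experiments 2 and 3 summed, as was the call of HHO1 in wild type from 0.5 to 2 h. In ZCZ01 from 0.5 to 2 h, HTA1 (-1.25, adjusted p = 0.0531 by edgeR) and HHT2 (-0.48, adjusted p = 0.198 by edgeR) were not called with experiments 2 and 3 summed.

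The probes of the copies of each core histone are equally long (499 bases for HTA1 and HTA2, 496 for HTB1 and HTB2, 511 for HHT1 and HHT2, 412 for HHF1 and HHF2). Whether they take in the 3′ ends of both copies equally was not tested. Shares of copies and differences between genes are therefore of reads, and they were compared between the strains. Coding sequences of the copies were 93.7% identical for H2A, 87.9% for H2B, 93.2% for H3 and 97.4% for H4, but the 100 bases downstream only 30% to 37%. No stretch of 75 bases, the length of a read, in the last 200 bases of any of these probes occurred elsewhere in the R64 genome, and over whole probes 6 of 338 did so in HHF1 and in HHF2.

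HTA2 gave 49.1%, 50.3% and 54.4% of H2A reads in wild type at 2 h and 14.9%, 16.9% and 18.9% in ZCZ01. The same held at 4 h, with 48.9%, 63.0% and 62.0% in wild type against 12.9%, 20.3% and 21.6%. At 0.5 h the shares were 45.5% ± 2.3 and 44.5% ± 2.4 (SD, n = 3 libraries). H2B shifted likewise at 2 h, when HTB2 gave 69.1% ± 4.4 of H2B reads in wild type and 19.2% ± 7.8 in ZCZ01 (SD, n = 3), without overlap. At 4 h the HTB2 shares overlapped, because in experiment 1 they were 57.3% and 54.3%, while in experiments 2 and 3 they were 41.3% and 42.1% in wild type against 15.98% and 12.1% in ZCZ01.

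HHT2 changed sides. At 2 h it gave 17.0% ± 1.3 of H3 reads in wild type and 26.8% ± 2.4 in ZCZ01, and at 4 h 26.9% ± 5.0 in wild type and 14.2% ± 1.6 in ZCZ01 (SD, n = 3), with no overlap at either time. HHF2 gave 47.7% ± 6.1 of H4 reads in wild type and 33.5% ± 10.6 in ZCZ01 at 2 h, which overlapped, and 48.0% ± 6.8 against 24.99% ± 5.2 at 4 h, which did not. Within each experiment the HHF2 share at 2 h was lower in ZCZ01, at 45.7%, 28.3% and 26.5% against 54.6%, 45.6% and 42.9% in wild type. In the exact permutation test, two-sided, 3 libraries against 3 cannot go below p = 0.10, and this was the value for each share whose libraries were apart (adjusted p = 0.20 over 36 tests, exact permutation). Neither that test nor the overlap of libraries pairs the experiments.

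**Figure D3:**
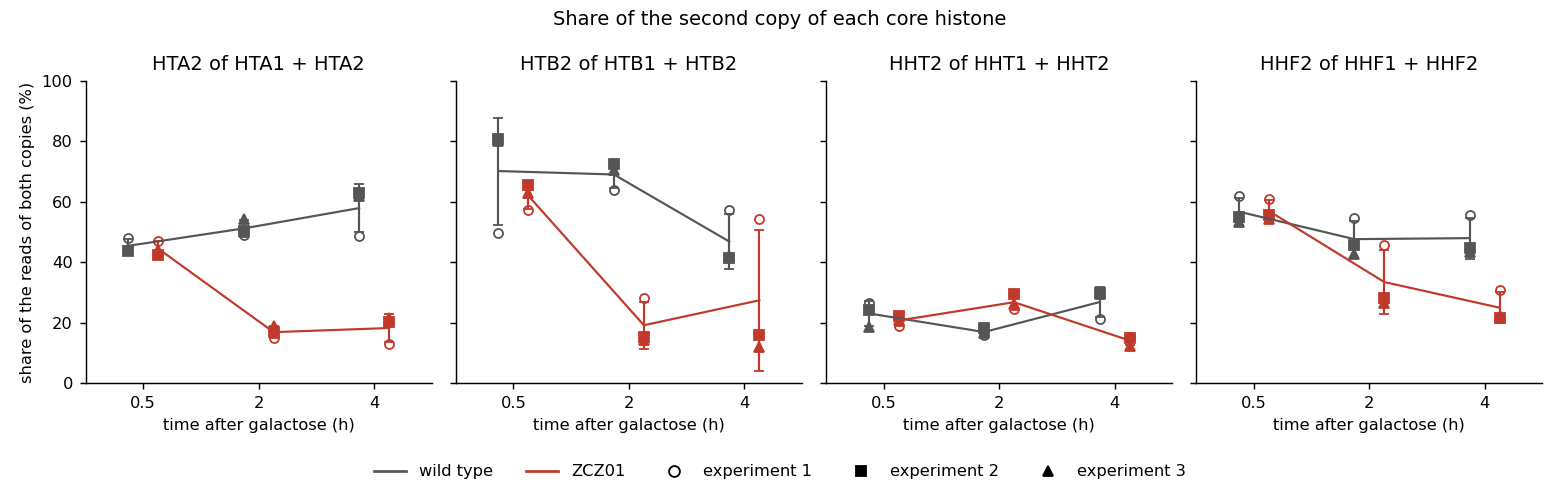
Share of reads from the second copy among the reads of both copies of H2A, H2B, H3 and H4 (percent) against time after galactose, with symbols for experiments and lines and bars for the mean and SD of 3 libraries. HTA2 drops from 44.5% to 16.9% in ZCZ01 by 2 h while wild type stays at 45.5% to 58.0%. The lines of HHT2 cross between 0.5 and 2 h and again between 2 and 4 h.

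Summed over copies, transcripts of all 4 core histones were lower in ZCZ01 at 2 and 4 h without overlap of the libraries (exact permutation p = 0.10 each, adjusted 0.20). H2A reads were 3191 ± 998.6 CPM in wild type and 886 ± 506 CPM in ZCZ01 at 2 h (SD, n = 3), 3.60-fold apart, and 4.15-fold apart at 4 h. H2B was 2.56-fold lower at 2 h and 5.32-fold lower at 4 h, and H4 was 3.91-fold and 4.04-fold lower. H3 differed least, at 1.91-fold and 1.99-fold. The partners of a divergent pair can be set against each other in the same way. HTB2 was below HTA2 in each strain, with a log2 difference of -1.002 ± 0.093 in wild type and -0.708 ± 0.447 in ZCZ01 at 2 h, which overlapped. At 2 h the gap was smaller in ZCZ01 in experiments 2 and 3 and larger in experiment 1. At 4 h it was -1.25 ± 0.16 and -0.94 ± 0.19, which also overlapped (exact permutation p = 0.20). HHF2 exceeded HHT2 by 3.11 ± 0.32 on the log2 scale in wild type at 2 h and by 0.77 ± 1.0 in ZCZ01, and HHF1 exceeded HHT1 by 0.95 ± 0.13 in wild type and by 0.34 ± 0.23 in ZCZ01, both without overlap (exact permutation p = 0.10, adjusted 0.20). At 4 h the first of these overlapped, at 2.10 ± 0.94 against 1.06 ± 0.68 (exact permutation p = 0.30), and the second did not, at 0.76 ± 0.19 against 0.06 ± 0.39. Within each experiment the excess of HHF2 over HHT2 at 4 h was smaller in ZCZ01. HHF1 and HHT1 were already apart at 0.5 h by this measure, at 1.09 ± 0.05 against 0.95 ± 0.06. For HTB1 minus HTA1 the strains overlapped at 0.5, 2 and 4 h. This difference was -2.09 ± 0.17 in wild type and -0.88 ± 1.31 in ZCZ01 at 2 h (exact permutation p = 0.40). At 4 h it was -0.60 ± 1.14 and -1.47 ± 2.12 (exact permutation p = 0.50). At 2 h it was lower in ZCZ01 in experiment 1 and higher in experiments 2 and 3.

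The 4 shared promoters are shown because the members that moved most and least lie on them. Each is given as 200 bases around its upstream activating sequence (UAS), the element bound by Spt10, with the bases that match in capitals. The plus strand of the R64 assembly is printed, from RefSeq.
HTA2-HTB2, chrII:236015-236214: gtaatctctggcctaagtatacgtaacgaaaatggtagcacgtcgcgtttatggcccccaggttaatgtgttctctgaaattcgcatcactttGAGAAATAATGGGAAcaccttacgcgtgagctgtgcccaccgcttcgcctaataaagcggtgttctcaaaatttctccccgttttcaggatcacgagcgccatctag
HTA1-HTB1, chrIV:915033-915232: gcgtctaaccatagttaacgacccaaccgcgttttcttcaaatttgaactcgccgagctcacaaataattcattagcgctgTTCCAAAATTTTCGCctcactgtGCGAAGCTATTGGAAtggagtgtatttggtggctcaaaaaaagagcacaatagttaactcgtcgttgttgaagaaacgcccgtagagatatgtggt
HHT1-HHF1, chrII:255851-256050: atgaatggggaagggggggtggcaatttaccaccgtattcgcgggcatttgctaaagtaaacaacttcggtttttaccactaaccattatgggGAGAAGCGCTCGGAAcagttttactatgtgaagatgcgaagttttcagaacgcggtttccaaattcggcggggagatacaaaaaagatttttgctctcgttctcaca
HHT2-HHF2, chrXIV:576253-576452: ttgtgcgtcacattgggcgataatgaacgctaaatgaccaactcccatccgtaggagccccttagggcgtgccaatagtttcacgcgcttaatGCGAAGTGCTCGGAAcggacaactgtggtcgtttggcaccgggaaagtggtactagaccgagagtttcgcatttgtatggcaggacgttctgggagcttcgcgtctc

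The letters searched for the UAS were TTCC, then any 6 bases, then TTCNC, on both strands. They occurred in all 4 regions between the divergent genes, at 2 places in HTA1-HTB1 and at 1 place in each of the others, and so within 700 bases upstream of 8 of the 10 members, against 4.04% of 6018 promoters of that length. The letters are those of an element of the histone promoters themselves, and the 8 members share 4 regions, so this share is a description and no test. HTZ1 and HHO1 had no match, which says only that these letters are not in their windows. The letters ACGCGT of the MCB, the element of MBF, occurred upstream of 2 members, HTA2 and HTB2, at 1 place between them, and in 6.96% of all promoters. The letters CACGAAA or CGCGAAA of the SCB, the element of SBF, occurred upstream of 6 members, HTA1, HTB1, HHT2, HHF2, HTZ1 and HHO1, and in 15.7% of all promoters. HTA1 and HTB1 share the same matches, as do HHT2 and HHF2, so this share too is a description and no test. HHT1 and HHF1 had neither of the last 2 elements. None of these searches overlap in letters in the shared promoters, and a match is no evidence of binding.

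**Figure D4:**
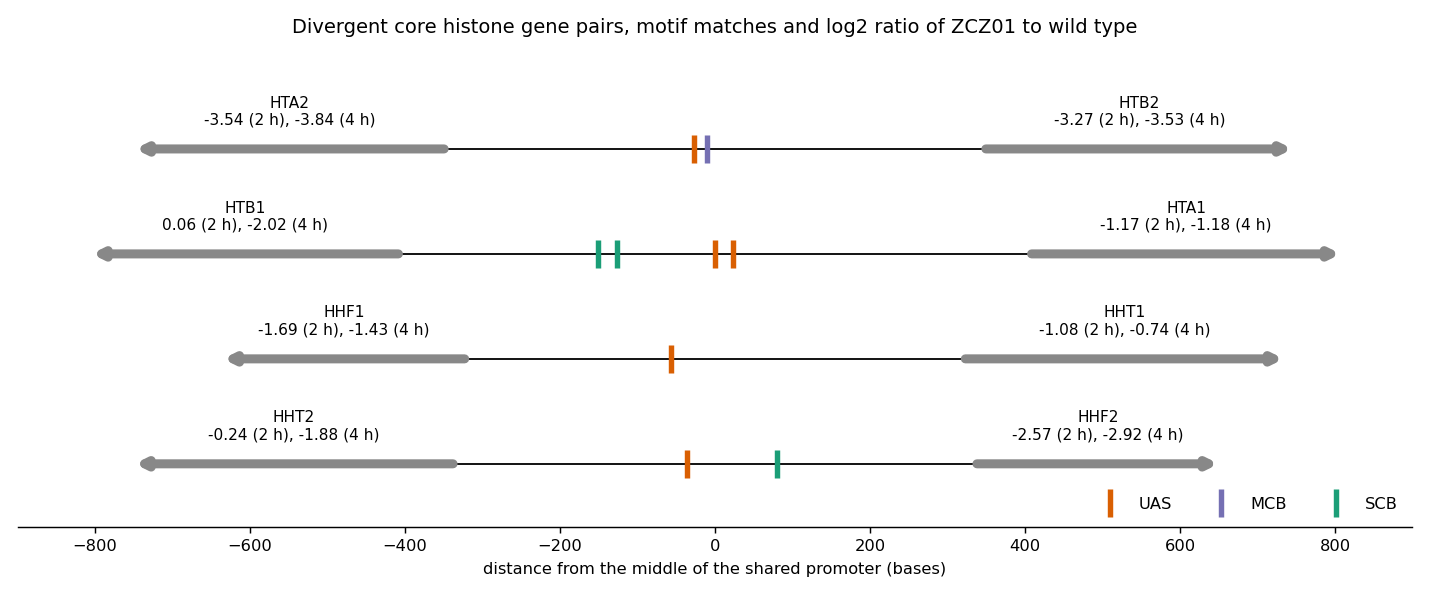
The divergent core histone pairs drawn to scale in bases from the middle of the shared promoter, with grey arrows for the coding sequences, ticks for matches to the UAS, MCB and SCB letters, and the log2 ratio of ZCZ01 to wild type at 2 and 4 h beside each gene. HTA2 and HTB2 have like ratios on the sides of 1 promoter (-3.54 and -3.27 at 2 h), whereas HHT2 and HHF2 differ (-0.24 and -2.57).

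By position in R64, HTA2 (II, 235394 to 235792, minus strand) and HTB2 (II, 236492 to 236887, plus) lie 699 bases apart. HTB1 (IV, 914317 to 914712, minus) and HTA1 (IV, 915530 to 915928, plus) lie 817 bases apart. HHF1 (II, 255373 to 255684, minus) and HHT1 (II, 256331 to 256741, plus) lie 646 bases apart, and HHT2 (XIV, 575640 to 576050, minus) and HHF2 (XIV, 576727 to 577038, plus) 676 bases apart. HTZ1 is at XV, 303579 to 303983, and HHO1 at XVI, 308828 to 309604, both on the minus strand. The probes cover each gene and 100 bases downstream.

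Among other genes of the same biology, those of DNA replication in S phase were lower at the same times. Of 27 measured, 18 were lower in ZCZ01 at 2 h and 17 at 4 h, where 23.4% and 21.6% of all genes were lower, the others did not pass, and the median log2 ratios were -0.83 and -0.77. By DESeq2 16 and 15 were lower, with experiments 2 and 3 summed 12 and 12, without experiment 2 13 and 9, and without experiment 3 12 and 11. RNR1, the large subunit of ribonucleotide reductase, had a log2 ratio of -1.86 at 2 h and -2.86 at 4 h, and CDC21, thymidylate synthase, -1.96 and -2.74. POL1, of DNA polymerase alpha, was at -2.16 and -1.51, and POL30, the sliding clamp PCNA, at -1.88 and -2.10, all called at each time. Of 14 genes of G2 and M phase, 2 were lower at 2 h, against 23.4% of all genes, and 8 at 4 h, against 21.6%, among them the cyclin CLB1 (-0.68 and -2.74), the polo kinase CDC5 (-0.80 and -1.99) and the chitin synthase CHS2 (0.01, not called, and -1.97). TDA6, of unknown function, was the member of that list called higher at 2 h (2.15) and was not called at 4 h (0.41). With experiments 2 and 3 summed, 1 of the 14 was lower at 2 h and 6 at 4 h. Without experiment 3, 1 of the 14 was lower at 2 h and 5 at 4 h, and without experiment 2 none was at 2 h by edgeR, where 5 had an unadjusted p under 0.05 in either direction and DESeq2 on all libraries called 1 lower, and 6 were at 4 h. Of 16 genes of late M and early G1, 9 were higher and 2 lower at 2 h, where 19.2% of all genes were higher and 23.4% lower, and 4 were higher and 3 lower at 4 h, where 20.0% were higher and 21.6% lower. PCL9, a cyclin (1.39 and -0.53, not called at 4 h), and the genes of cell separation CTS1 (1.23 and 0.61), DSE2 (1.22 and -0.86) and SCW11 (1.198 and 0.438, not called at 4 h) led that list. With experiments 2 and 3 summed, 7 of these 16 were higher and none lower at 2 h, where 9 had an unadjusted p under 0.05 in either direction. At 4 h 2 were then higher and 2 lower. Without experiment 2 there were 6 higher at 2 h, and 1 higher and 1 lower at 4 h, and without experiment 3 there were 5 higher at 2 h, and 2 higher and 1 lower at 4 h.

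Regulators of the histone genes had smaller differences, with median log2 ratios of -0.43 at 2 h and -0.22 at 4 h. Of 16 measured, 8 were lower at 2 h, against 23.4% of all genes, and 5 lower and 2 higher at 4 h, against 21.6% and 20.0%. SWI4, the DNA-binding subunit of SBF, had log2 ratios of -1.14 at 2 h and -0.33 at 4 h, of which the first was called, and SPT21, the partner of Spt10, -1.09 and -0.29, likewise. SPT5 and SPT6, elongation factors, were at -1.06 and -0.78 at 2 h, both called, and at -1.02 (called) and -0.35 (not called) at 4 h. With experiments 2 and 3 summed, 3 regulators were lower at 2 h, by DESeq2 4, and 3 and 2 in turn without experiments 2 and 3. At 4 h 2 were lower and 1 higher with these experiments summed, 1 lower and 1 higher without experiment 2, and 1 lower without experiment 3.

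Histone chaperones and assembly factors went both ways, with 6 of 17 lower and 2 higher at 2 h (23.4% and 19.2% of all genes) and 7 lower and 2 higher at 4 h (21.6% and 20.0%). CAC2 and MSI1, subunits of the same chromatin assembly factor, parted: CAC2 was at -1.38 at 2 h and -0.72 at 4 h, both called, and MSI1 at 0.47 (not called) and 1.57 (called). HIF1, which works with the histone acetyltransferase Hat1, was at -1.10 and -0.57, both called, and NHP6A, a partner of the FACT complex, at 0.67 (not called) and -1.62 (called). With experiments 2 and 3 summed, 2 were lower and 1 higher at each of these times, without experiment 2 there were 3 lower at 2 h and 2 at 4 h, and without experiment 3 2 and 1. By DESeq2 5 were lower at 2 h and 3 at 4 h.

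The SWR1 and INO80 complexes, which exchange H2A.Z and move nucleosomes, mostly did not pass: of 23 measured, 3 were lower and 1 higher at 2 h (23.4% and 19.2% of all genes), and 2 lower and 4 higher at 4 h (21.6% and 20.0%). ARP4, a subunit of both, fell (-0.65 and -0.99), IES6 of INO80 was lower at 2 h (-0.80) and not called at 4 h (0.09), and IES1 of INO80 (0.98) and BDF1 of SWR1 (0.76) were higher at 4 h. Without experiment 2, without experiment 3 and with both summed, 0 of the 23 were called at 2 h by edgeR, where 2, 2 and 3 had an unadjusted p under 0.05 and DESeq2 on all libraries called 2, and at 4 h 1 was lower and 2 were higher. Of 30 histone modifying enzymes 8 were lower and 2 higher at 2 h, against 23.4% and 19.2% of all genes, and 4 lower and 5 higher at 4 h, against 21.6% and 20.0%. BUR2, the cyclin of the kinase Bur1, was at -1.98 at 2 h, RAD6, which ubiquitylates H2B, at 1.42 at 2 h, the deacetylase HOS3 at -1.19 at 2 h and -0.76 at 4 h, and the H3 deacetylase HST3 at -1.43 at 4 h, all called. The lower enzymes at 2 and 4 h numbered 4 and 2 without experiment 2, 2 and 1 without experiment 3, 3 and 1 with both summed, and 9 and 1 by DESeq2. With both summed, 2 were higher at 2 h and 4 at 4 h.

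Of 9 genes of histone mRNA and protein turnover, 3 were lower and 1 higher at 2 h (23.4% and 19.2% of all genes), and 1 lower and 3 higher at 4 h (21.6% and 20.0%). With experiments 2 and 3 summed, 10 were tested. Of these, 2 were lower and 1 higher at 2 h, and 1 lower and 2 higher at 4 h. Without experiment 3, 1 was lower at 2 h, and at 4 h none was higher by edgeR, where 3 had an unadjusted p under 0.05 in either direction and DESeq2 on all libraries called 3 higher. LSM1, of a complex that promotes the decapping of mRNA, was lower at both times (-1.12 and -1.39), and UBC4, a ubiquitin-conjugating enzyme for surplus histones, was higher at both (0.78 and 0.58). The poly(A) polymerases PAP2 and TRF5 were lower at 2 h (-0.90 and -0.66), and at 4 h TRF5 was higher (0.85) while PAP2 was not called (0.42). CSE4, the centromeric H3 variant, had log2 ratios of 0.13 ± 0.21 at 2 h and -0.44 ± 0.21 at 4 h and passed at neither (adjusted p = 0.66 and 0.12 by edgeR). Among the 5 genes of that list CBF1, a centromere-binding factor, was lower at 2 h (-0.96) and MIF2, a kinetochore protein, higher at 4 h (0.69), and neither was called with experiments 2 and 3 summed.

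Of all other genes tested, those whose log2 CPM followed the mean of the 8 core histone genes most closely over the 18 libraries were ADK1, adenylate kinase (Pearson r = 0.978), GAS1, a glucan-remodelling enzyme of the cell wall (0.978), PMI40, phosphomannose isomerase (0.975), POL30 (0.971), ERG4, of ergosterol synthesis (0.963), PSA1, which makes GDP-mannose (0.958), RFA3, a subunit of replication protein A (0.957), and SUB2, an RNA helicase of mRNA export (0.956). The libraries share strains, times and experiments, so r is a description. Their strain differences follow from that choice and are a description, with GAS1 at -1.23 and -1.84, PSA1 at -1.21 and -1.81 and SUB2, the least changed, at -0.71 and -0.97. Measured the same way against the other core genes, HTA2 had r = 0.968, HHF1 0.961, HHF2 0.960 and HTB2 0.958. HHT1 (0.888), HTA1 (0.853) and HHT2 (0.846) followed less closely, and HTB1 had 0.297, the lowest of the 8. HTZ1 (0.932) and HHO1 (0.856), which are not in the mean, lay between.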

How the data were processed

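Per the labels and the study's methods, the authors made QuantSeq 3′ libraries, aligned single-end reads with Bowtie2 (no version is given) and counted reads in probes of each gene with 100 nt downstream. The deposited values are these raw counts, with no scaling, in a table for each experiment. No source used here gives the genome build or strand setting. Of 6692 probes, 6000 matched an R64 gene and 5997 of these equal the gene with 100 nt.

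Counts were filtered by filterByExpr (5485 genes), scaled by TMM and fitted in edgeR 4.0.16 under R 4.3.3 with blocks for the 9 pairs (experiment and time) and a ZCZ01 effect for every time. Within-strain times were fitted with a block for each experiment. P-values from the quasi-likelihood test were adjusted by Benjamini-Hochberg over all genes, and calls needed an adjusted p under 0.05. The pairs come from experiment and time in the library names. The libraries of a pair deviated together (correlation 0.541 to 0.817), but the labels do not name a shared culture day. Shares, partner ratios and sums were compared by exact permutation without pairing of the experiments. Alternatives were no block, blocks per experiment, each time alone, DESeq2 1.42.0, other scalings, no filter, each experiment left out, experiments 2 and 3 summed and the times of the titles. Named genes are all members, up to 4 of each list with the largest change among those called at 2 or 4 h, the 8 most alike genes, and PPZ1. KTR5 and CSE4 were added after their values were seen. Members and lists were chosen with earlier results of these data known. Tables and plots were made with matplotlib 3.10.9, pandas 2.3.3 and numpy 2.4.6 under Python 3.11.15.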

Additional observations from a re-analysis of the deposited data

Results flagged for a closer look

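The ZCZ01 to wild type ratio differed between times for every histone gene in at least 1 of the 3 spans tested (edgeR's quasi-likelihood test of the difference itself, adjusted over all genes, 3 pairs of libraries a time). From 0.5 to 2 h the log2 ratio changed by -3.54 for HTA2, -3.40 for HTB2, -2.66 for HHF2, -1.77 for HHF1, -1.29 for HHT1, -1.23 for HTA1, -0.98 for HTZ1 and -0.66 for HHO1. From 2 to 4 h it changed by -2.08 for HTB1, -1.90 for HHO1 and -1.64 for HHT2. From 0.5 to 4 h it changed by -3.84 for HTA2, -3.67 for HTB2, -3.01 for HHF2, -2.78 for HTB1, -2.56 for HHO1, -1.90 for HHT2, -1.51 for HHF1, -1.47 for HTZ1, -1.23 for HTA1 and -0.95 for HHT1. The changes of HTZ1 and HHO1 from 0.5 to 2 h and of HTB1 and HHT2 from 2 to 4 h missed the threshold when experiment 2 or experiment 3 was left out. They also missed it with both summed. That of HHT1 from 0.5 to 4 h missed it without experiment 2 (-0.99, adjusted p = 0.0539 by edgeR). That of HHO1 from 0.5 to 2 h also missed it under DESeq2 (-0.60), with DESeq2's size factors (-0.60) and with total counts (-0.44).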

How the results depend on the processing

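The counts of 8 and 10 histone genes lower in ZCZ01 at 2 and 4 h were 7 to 8 and 10 when an experiment was left out. The same ranges were 0 to 2 genes higher and 0 to 1 lower at 0.5 h, 0 to 1 higher at 2 h, 6 to 9 with a ratio at 2 h below that at 0.5 h, and, from 2 to 4 h, 1 to 5 with a lower and 0 to 2 with a higher ratio. Within wild type they were 0 to 1 higher and 0 to 5 lower from 0.5 to 2 h, and 0 to 3 higher and 0 to 4 lower from 2 to 4 h. Within ZCZ01 they were 0 to 1 higher from 0.5 to 2 h, and 0 to 1 higher and 0 to 8 lower from 2 to 4 h. The high ends came without experiment 1, where the closely alike experiments 2 and 3 alone set the spread. The change of HTB1 in ZCZ01 from 0.5 to 2 h (-0.14) ran from -0.44 to 0.32, the latter without experiment 1. The difference in HHT2 share at 0.5 h ran from -4.70 to 0.29 percentage points and that of HHF2 from -0.19 to 0.82.

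With experiments 2 and 3 summed, 6 ratios fell from 0.5 to 2 h and 1 from 2 to 4 h. The calls within wild type (2 from 2 to 4 h, 1 from 0.5 to 2 h) and within ZCZ01 from 2 to 4 h then fell to 0. Without the replicate block for pairs, 5 ratios fell from 0.5 to 2 h and 6 from 0.5 to 4 h, 0 members were lower in wild type at 2 h than at 0.5 h, 1 was higher at 4 h than at 2 h, and 1 was lower in ZCZ01. Of 100 single values, 84 kept their side of the threshold, and their direction where called, without the block, 98 under DESeq2, 99 with its size factors, 98 with total counts and 100 with no filter. It was 73 without experiment 1, 89 without experiment 2, 88 without experiment 3 and 89 with experiments 2 and 3 summed. Total counts moved the median of all genes by more than 0.1 in several comparisons. Between the strains at 2 h it moved to 0.10 from -0.05, and the 8 and 10 calls stood. It moved most from 0.5 to 2 h, to 0.14 from -0.08 for the ratio and to 0.22 from 0.02 within ZCZ01. There the falls of the ratio went from 8 to 7, without HHO1. Within ZCZ01 the lower members went from 9 to 8, without HHT2 (-0.30, adjusted p = 0.176 by edgeR).

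With the times of the titles, 0 members were lower at 2 or 4 h and 0 ratios fell in any span, since a group then mixes times of the library names by construction. There HTB1 at 4 h was at 0.19, the change of ratio from 0.5 to 2 h was 0.031 for HTB2, 0.16 for HHT1 and 0.18 for HHO1, that from 2 to 4 h was 0.024 for HTB1 and 0.10 for HHT2, and that from 0.5 to 4 h was 1.68 for HTB1, 0.25 for HHT1 and 0.23 for HHT2. The lowest value of a member in any library was 22.6 CPM.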
